A study of Homo sapiens and Mus musculus with 20 samples.

Results

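The data describe chromatin accessibility at 10 genes that mark differentiated absorptive cells of the intestine, ALPI, VIL1, KRT20, SI, FABP1, ANPEP, DPP4, SLC26A3, CA2 and CEACAM5, in SW480 cells treated with sodium propionate (NaPr) or sodium butyrate (NaBu). An accessible region was counted as a member when it lay in the body of one of these genes or within 20 kb on either side (GENCODE release 44, GRCh38). After merging overlapping peaks of 12 libraries, 98 of 252173 SW480 regions met this rule, and they fell at 9 of the 10 genes. SW480 is an established human line from a colorectal adenocarcinoma, and the labels describe it as epithelial cells of the colon. There were 4 groups of 3 libraries: cells given 10 mM NaPr and untreated cells (0 mM) from the same experiment, and cells given 1 mM NaBu and untreated cells (0 mM) from another experiment that carries another date in its labels. Exposure lasted 12 to 16 h, and accessibility was measured by Omni-ATAC, in which a transposase cuts open chromatin. All libraries come from 1 cell line, and nothing in the labels says whether replicates were separate cultures, so p-values measure the spread between these libraries, which may be technical.

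Enterocytes and colonocytes arise from stem cells at the base of the crypt and mature as they move towards the lumen. On the way they build a brush border of actin-filled microvilli (villin, VIL1), place hydrolases on it (ALPI, SI, ANPEP, DPP4), and take up transporters and enzymes for lipid and ion handling (FABP1, SLC26A3, CA2). Butyrate is the main fuel of colonocytes and an inhibitor of histone deacetylases, and it has long been used to raise alkaline phosphatase in cultured colon cancer cells. The comparisons here ask whether chromatin at these markers became more or less accessible after each compound.

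The results turn mainly on 7 regions, for which the bases around the highest summit are printed from hg38, plus strand, 5′ to 3′. Capitals mark letters that match 1 of 8 short motifs searched on both strands: TTTATNG for caudal-type factors (CDX), CAAAGTCCA for HNF4, GTTAATNAT for HNF1, AGATAA for the zinc finger factors of the GATA family, TGANTCA for the Fos and Jun dimer (AP-1), ATCAAAG for the partners of β-catenin (TCF factors), CCNCNCCC for the Krüppel-like factors (KLF) and AGGGGGCGC for CTCF. By rank of the peak p-value within library, the CEACAM5 pair was called higher after both compounds, but not by fold enrichment in every case. By the same rank the ALPI and KRT20 regions rose most at their genes after NaBu, and the FABP1 and ANPEP regions fell most. The DPP4 region had peaks in treated libraries alone in the NaPr experiment. The ANPEP window was shortened by 12 bases at an annotated first exon.
CEACAM5 start region, chr19:41707005-41707204: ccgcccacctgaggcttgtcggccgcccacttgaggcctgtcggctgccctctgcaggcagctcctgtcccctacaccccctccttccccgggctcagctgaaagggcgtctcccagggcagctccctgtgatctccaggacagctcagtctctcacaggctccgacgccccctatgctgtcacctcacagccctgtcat
CEACAM5 upstream region, chr19:41701840-41702039: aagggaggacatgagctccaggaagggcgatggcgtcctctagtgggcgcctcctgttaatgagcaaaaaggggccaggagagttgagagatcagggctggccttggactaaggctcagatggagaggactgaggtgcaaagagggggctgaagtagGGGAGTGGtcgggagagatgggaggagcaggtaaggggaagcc
ALPI upstream region, chr2:232446359-232446558: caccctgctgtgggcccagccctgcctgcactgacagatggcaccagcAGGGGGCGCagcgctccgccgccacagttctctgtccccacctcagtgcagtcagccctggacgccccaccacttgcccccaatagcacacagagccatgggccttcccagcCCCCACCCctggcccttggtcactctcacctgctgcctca
KRT20 upstream region, chr17:40902134-40902333: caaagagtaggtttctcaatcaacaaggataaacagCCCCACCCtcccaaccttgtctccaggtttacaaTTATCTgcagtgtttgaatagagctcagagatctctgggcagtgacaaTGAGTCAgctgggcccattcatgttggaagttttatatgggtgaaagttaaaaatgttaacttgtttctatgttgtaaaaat
ANPEP start region, chr15:89815085-89815272: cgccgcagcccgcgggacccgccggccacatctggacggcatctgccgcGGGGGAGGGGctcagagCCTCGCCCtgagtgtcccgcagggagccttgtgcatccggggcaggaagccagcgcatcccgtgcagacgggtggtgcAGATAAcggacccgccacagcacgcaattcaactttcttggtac
FABP1 upstream region, chr2:88139274-88139473: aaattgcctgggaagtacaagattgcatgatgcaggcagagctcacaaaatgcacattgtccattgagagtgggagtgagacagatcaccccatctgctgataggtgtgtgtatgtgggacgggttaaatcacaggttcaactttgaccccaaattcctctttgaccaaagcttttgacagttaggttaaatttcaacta
DPP4 upstream region, chr2:162091720-162091919: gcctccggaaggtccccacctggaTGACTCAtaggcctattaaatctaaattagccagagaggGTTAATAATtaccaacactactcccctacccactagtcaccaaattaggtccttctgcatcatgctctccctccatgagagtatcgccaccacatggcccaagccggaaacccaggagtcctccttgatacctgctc
No motif matched in the windows of the CEACAM5 start region and the FABP1 region. The upstream CEACAM5 window held KLF letters, the ALPI window KLF and CTCF letters, the KRT20 window GATA, AP-1 and KLF letters, the ANPEP window GATA and KLF letters, and the DPP4 window HNF1 and AP-1 letters.

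Over the 69 member regions with a peak in at least 2 of the 12 libraries, the KLF letters occurred in 42% of the 200 bp windows, against 29.8% of 167303 such regions genome-wide. CDX letters, for the caudal-type factors that specify intestinal epithelium, occurred in 11.6% against 7.35%. The AP-1 letters occurred in 15.9% against 18.8%, and the GATA letters in 7.25% against 7.84%. HNF1 letters were found in 2 member windows (2.9% against 0.729%), at the DPP4 upstream region and at the SLC26A3 start. The TCF letters occurred in 5.8% against 4.59%, the CTCF letters in 1.45% against 0.925% and the HNF4 letters in none against 0.58%. Median GC content was 57% in the member windows against 51.5%, and the part of base composition in these shares was not tested. A match is a description of letters and not of a bound factor.

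Each library was deposited as a list of peaks with a p-value and a fold enrichment over local background, without reads. The lists held 299022 to 299463 lines, and in each the numbering ended at 300000, so the weakest peak listed differed between libraries, from a −log10 p of 3.37 to 9.38. Sequencing depth is not given, and a missing peak means that none was listed and not that no signal was there. Accessibility is given as a rank: the percentile, from 0 to 100, of a region's highest −log10 p among all regions with a peak in the same library, with 0 for no peak. Tag counts at summits, worked out from the fold and the p-value, ranged from 6 to 463 where a member region had a peak. The genome-wide background in the NaPr experiment was 0.936, 2.35 and 2.02 tags in untreated and 0.938, 1.27 and 1.77 in treated libraries. In the NaBu experiment it was 3.03, 2.11 and 2.49 tags untreated and 2.33, 2.46 and 2.52 treated. It thus differed within groups as well, and the tag counts given below are not scaled to it. Start regions of all 6 epithelial markers looked at (EPCAM, CDH1, KRT8, KRT18, KRT19, CLDN7) had a peak in all 12 libraries, and of the leukocyte markers CD14 had one in all 12 whereas PTPRC and CD3E had none in any library.

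Before any comparison, the markers differed widely in how open they were. Of the 98 regions, 38 overlapped gene bodies and 60 lay in flanks, 18 had a peak in all 12 libraries, and 29 had a peak in 1 library only. ANPEP had 24 regions, ALPI 15, VIL1 and FABP1 12 each, KRT20 and DPP4 11 each, CEACAM5 10, SLC26A3 2 and CA2 1. SI, the brush border enzyme that splits sucrose and is characteristic of the small intestine, had no region in any library. In 28 cases the nearest protein-coding start belonged to another gene, and 3 regions lay within 1 kb of such a start, 2 at CTDSP1 and 1 at MESP2. Between 35 and 47 member regions had a peak in a given library.

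**Figure D1:**
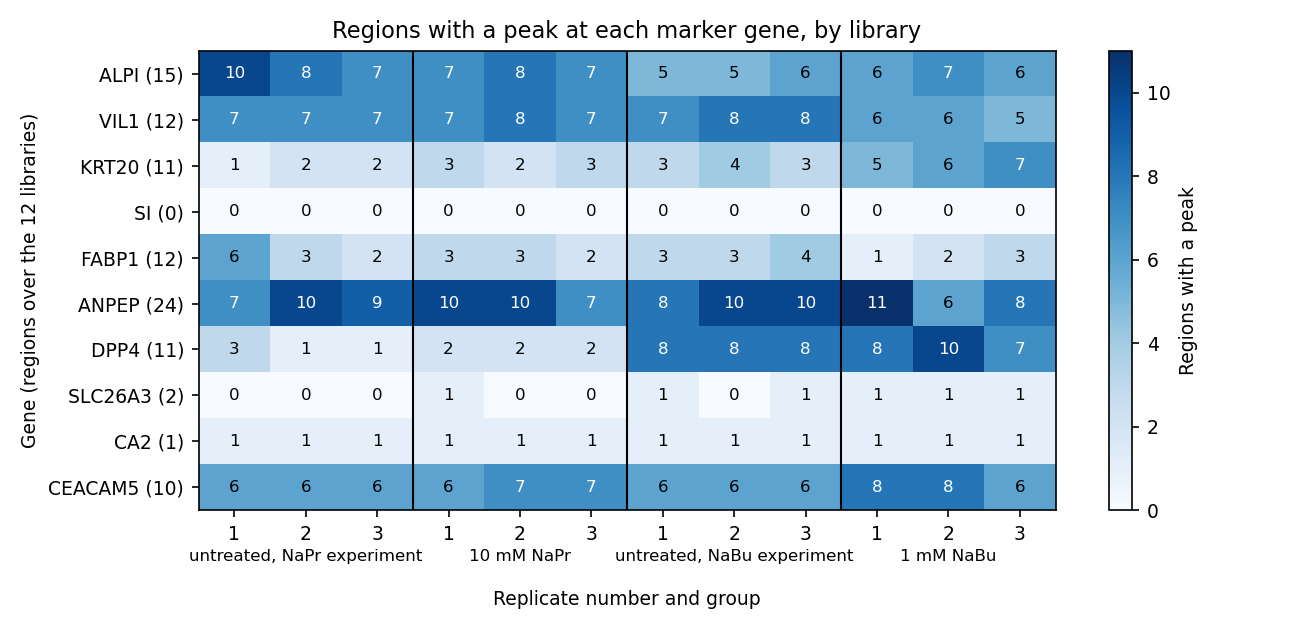
Number of member regions with a peak at each of the 10 genes (rows, with the number of regions over all libraries in parentheses) in each of the 12 libraries (columns, by group and replicate). DPP4 had 1 to 3 regions with a peak in libraries of the NaPr experiment and 7 to 10 in those of the NaBu experiment, and SI had none.

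A start region, overlapping the 1 kb on either side of a protein-coding start annotated in GENCODE (the strongest such region by mean rank), was found for 8 genes and was absent for SI and FABP1. CEACAM5, CA2 and VIL1 had strong start regions, DPP4 and ANPEP intermediate ones, and ALPI, KRT20 and SLC26A3 had peaks in some libraries only. In untreated cells of the NaPr experiment the order of mean ranks was CA2 (92.7 ± 1.32, SD, n = 3), CEACAM5 (89.8 ± 1.91), VIL1 (66.2 ± 3.13), DPP4 (54.5 ± 2.6), ANPEP (46.8 ± 15.7) and ALPI (9.12 ± 15.8), with KRT20 listed in 1 library and SLC26A3 in none. The ranges of CA2 and CEACAM5 overlapped, as did those of DPP4 and ANPEP. In untreated cells of the NaBu experiment the order was VIL1 (95.8 ± 0.932), CEACAM5 (93.2 ± 0.354), CA2 (87.6 ± 0.387), DPP4 (71.4 ± 8.4), ANPEP (41.0 ± 7.32) and SLC26A3 (13.3 ± 15.1), with no ALPI or KRT20 peak, and none of these 6 overlapped with its neighbour in this order. No test was made between the experiments.

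**Figure D2:**
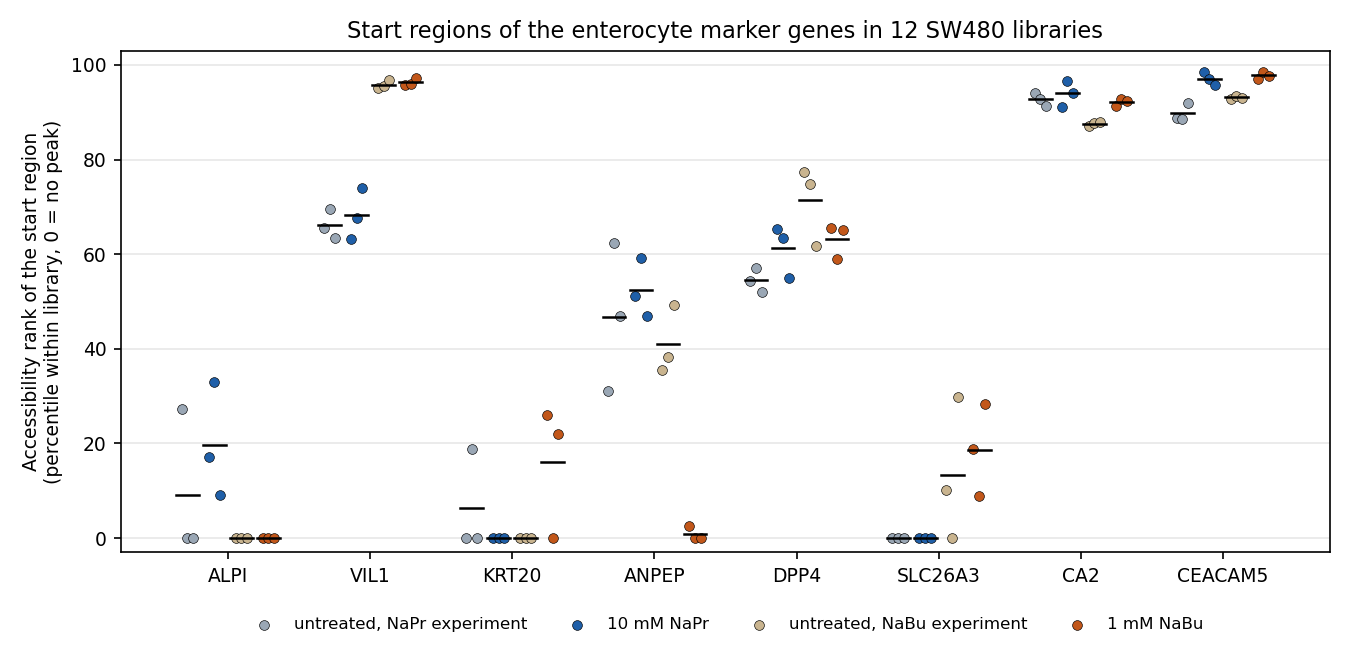
Accessibility rank (percentile within library, 0 for no peak) of the start region of 8 marker genes, with 1 point per library and a bar for the mean of 3, in 4 groups. The CEACAM5 points after either compound lie above all untreated points of the same experiment, and the ANPEP points after NaBu lie at 2.58, 0 and 0.

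After NaPr, 46 member regions had a peak in at least 2 of the 6 libraries and were tested. Limma tests of both directions, with Benjamini-Hochberg adjustment over all 124067 tested regions, called 2 member regions higher (4.35%, against 3.1% of all regions) and 0 lower (0%, against 2.22%). Both lay upstream of CEACAM5. Without any 1 library the calls over all regions fell to between 0 and 2418 higher and between 0 and 761 lower, from 3847 and 2751. There were 0 of either without treated replicate 3 (limma, with 26369 of 117931 regions at an unadjusted p below 0.05) and 91 and 120 without treated replicate 2. At an unadjusted p below 0.05 there were 11 member regions (23.9%), against 23.1% of all tested regions. The median change over the tested members was 2.71 percentile points, against 0.526 over all tested regions. A peak listed for each of the 3 treated libraries but for none of the untreated was found at 1 member region, upstream of DPP4 (2.95% of all tested regions), and the reverse at 0 (1.5%).

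After NaBu, 53 member regions were tested among 123730, and 11 were called higher (20.8%, against 24% of all regions) and 11 lower (20.8%, against 13.1%). The higher regions lay at ALPI (3), CEACAM5 (3), KRT20 (2), ANPEP (2) and CA2 (1), and the lower ones at ANPEP (4), VIL1 (3), DPP4 (3) and FABP1 (1). Neither SI, with no region, nor SLC26A3, with 1 tested region, had a call. Treated lists held more regions than untreated ones in this experiment, and the median change was 2.92 points over all tested regions and 1.11 over the members. With ranks counted from the strongest region instead, the medians were 0.61 and -0.64. By these ranks 9 member regions were called higher (17%, against 18.8% of all regions) and 11 lower (20.8%, against 17.8%). Such ranks do not fully take out list length, since a missing peak has the lowest value however long its list. Of all regions called after NaBu, 64.7% were higher by percentile rank and 51.4% by rank from the strongest. At 2 member regions each of the 3 treated libraries had a peak and the untreated libraries had none (CEACAM5 and ANPEP, both upstream; 6.41% of all tested regions), and at 2 the untreated libraries alone had it (both at VIL1; 3.72%). By rank from the strongest, the falls at these VIL1 regions went from -27.5 to -34.49 and from -23.04 to -30.74. The rises went from 31.05 to 31.91 at the CEACAM5 region and from 18.57 to 19.6 at the ANPEP region.

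Called regions were found in both parts of the windows. After NaBu, 2 of 18 tested regions that overlapped gene bodies were higher and 6 lower, and 9 of 35 in flanks were higher and 5 lower. Both higher ones at bodies had their summits outside the gene, 567 bp upstream of the CA2 start and past the 3′ end of ANPEP. By overlap, the shares at bodies were 11.1% higher and 33.3% lower, against 21.5% and 15% of all tested regions that overlapped a protein-coding gene. In flanks they were 25.7% and 14.3%, against 27% and 10.2% of those outside all such bodies and within 20 kb of one. Of the 18 regions with a peak in all 12 libraries, 6 were higher (33.3%, against 27.3% of all such regions) and 1 lower (5.56%, against 12.4%) after NaBu, and 1 was higher (5.56%, against 4.41%) after NaPr. The 2 regions called higher after NaPr were also higher after NaBu. A further 7 regions tested in both comparisons were higher after NaBu alone and 5 were lower after NaBu alone, and whether these differed between compounds was not tested, since the doses differ.

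**Figure D3:**
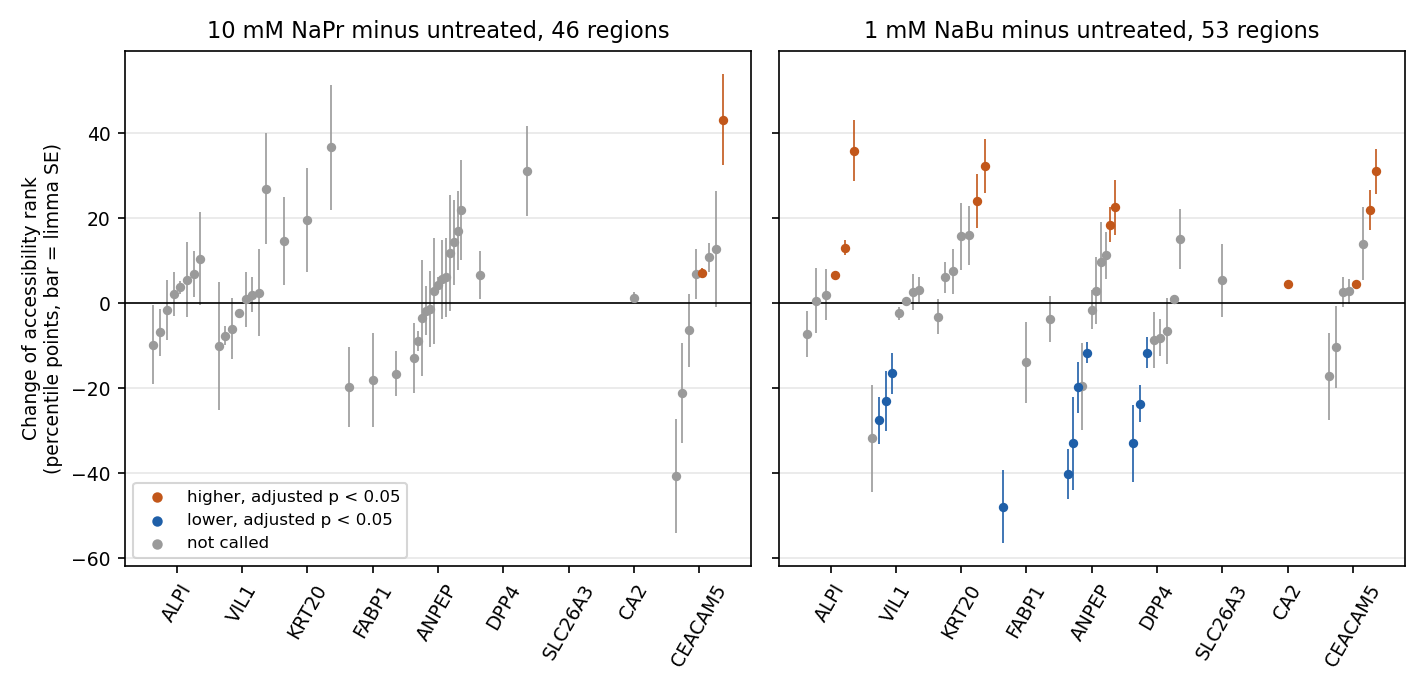
Change of accessibility rank (treated minus untreated mean, percentile points, bars are the limma SE) of each tested member region, grouped by gene, after 10 mM NaPr (46 regions) and after 1 mM NaBu (53 regions). Orange and blue points passed an adjusted p of 0.05. The only called regions after NaPr are the 2 at CEACAM5, and after NaBu calls in both directions are seen at ANPEP alone.

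CEACAM5 encodes the carcinoembryonic antigen, a glycoprotein of the colonocyte surface (ENSG00000105388.17, chr19:41708585-41730433, plus strand). Its start region, chr19:41706535-41707781, is intergenic, with the summit 1480 bp upstream of the annotated start. In the NaPr experiment its rank was 88.8, 88.6 and 92 in untreated and 98.5, 97 and 95.8 in treated libraries. Every treated library was above every untreated one, and the change was 7.24 points (SE 1.17, limma adjusted p = 0.00942). In the NaBu experiment it was 92.8, 93.5 and 93.1 untreated and 97.1, 98.6 and 97.7 treated, again without overlap, a change of 4.63 points (SE 0.61, limma adjusted p = 0.00109). The summit held 65 to 182 tags in untreated and 129 to 207 in NaPr-treated libraries, and 207 to 307 untreated and 298 to 358 NaBu-treated. Leaving out any treated NaPr library or untreated replicate 2 of that experiment gave adjusted p values of 0.0606 to 0.072, and ranking by fold enrichment gave 0.141 for NaPr and 0.659 for NaBu.

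The upstream CEACAM5 region, chr19:41701491-41701986, lies 6645 bp upstream of the start, in an intron of CEACAM7, and showed the largest rise of any member after NaPr. It was listed in 1 of 3 untreated libraries of the NaPr experiment, at a rank of 9.64, and in all 3 treated ones at 45.5, 46.3 and 47.5. The change was 43.2 points (SE 10.7, limma adjusted p = 0.0431). No untreated library of the NaBu experiment had the peak, and treated ones had it at 27.6, 26.9 and 38.7 (change 31.1 points, SE 5.35, limma adjusted p = 0.00311). The peaks were small, with 18 to 42 tags after NaPr and 39 to 50 after NaBu. After NaPr the adjusted p lay between 0.073 and 0.116 without any 1 of the 6 libraries and at 0.124 by fold enrichment, whereas after NaBu it stayed between 0.00698 and 0.0145 without any 1 library.

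Another region, chr19:41690785-41691859, lies in CEACAM7 closer to the CEACAM7 start, and rose after NaBu from 45.4, 34.1 and 40.4 to 61, 63.4 and 61.5 (change 22.03 points, SE 4.72, limma adjusted p = 0.0078). After NaPr it changed by 6.97 points (SE 5.86, adjusted p = 0.489). The NaBu call was kept in 14 of 17 other settings. It was lost by fold enrichment rank (limma adjusted p = 0.0523) and by log2 fold enrichment, plain (0.0786) or centred on the median (0.0929). Between the start region and the region 6645 bp upstream, a peak at chr19:41705385-41705930 pointed the other way. It had ranks of 63.1, 50.7 and 49.1 in untreated libraries of the NaPr experiment and 0, 0 and 40.9 in treated ones (change -40.65, SE 13.4, limma adjusted p = 0.0997), which did not pass the test.

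**Figure D4:**
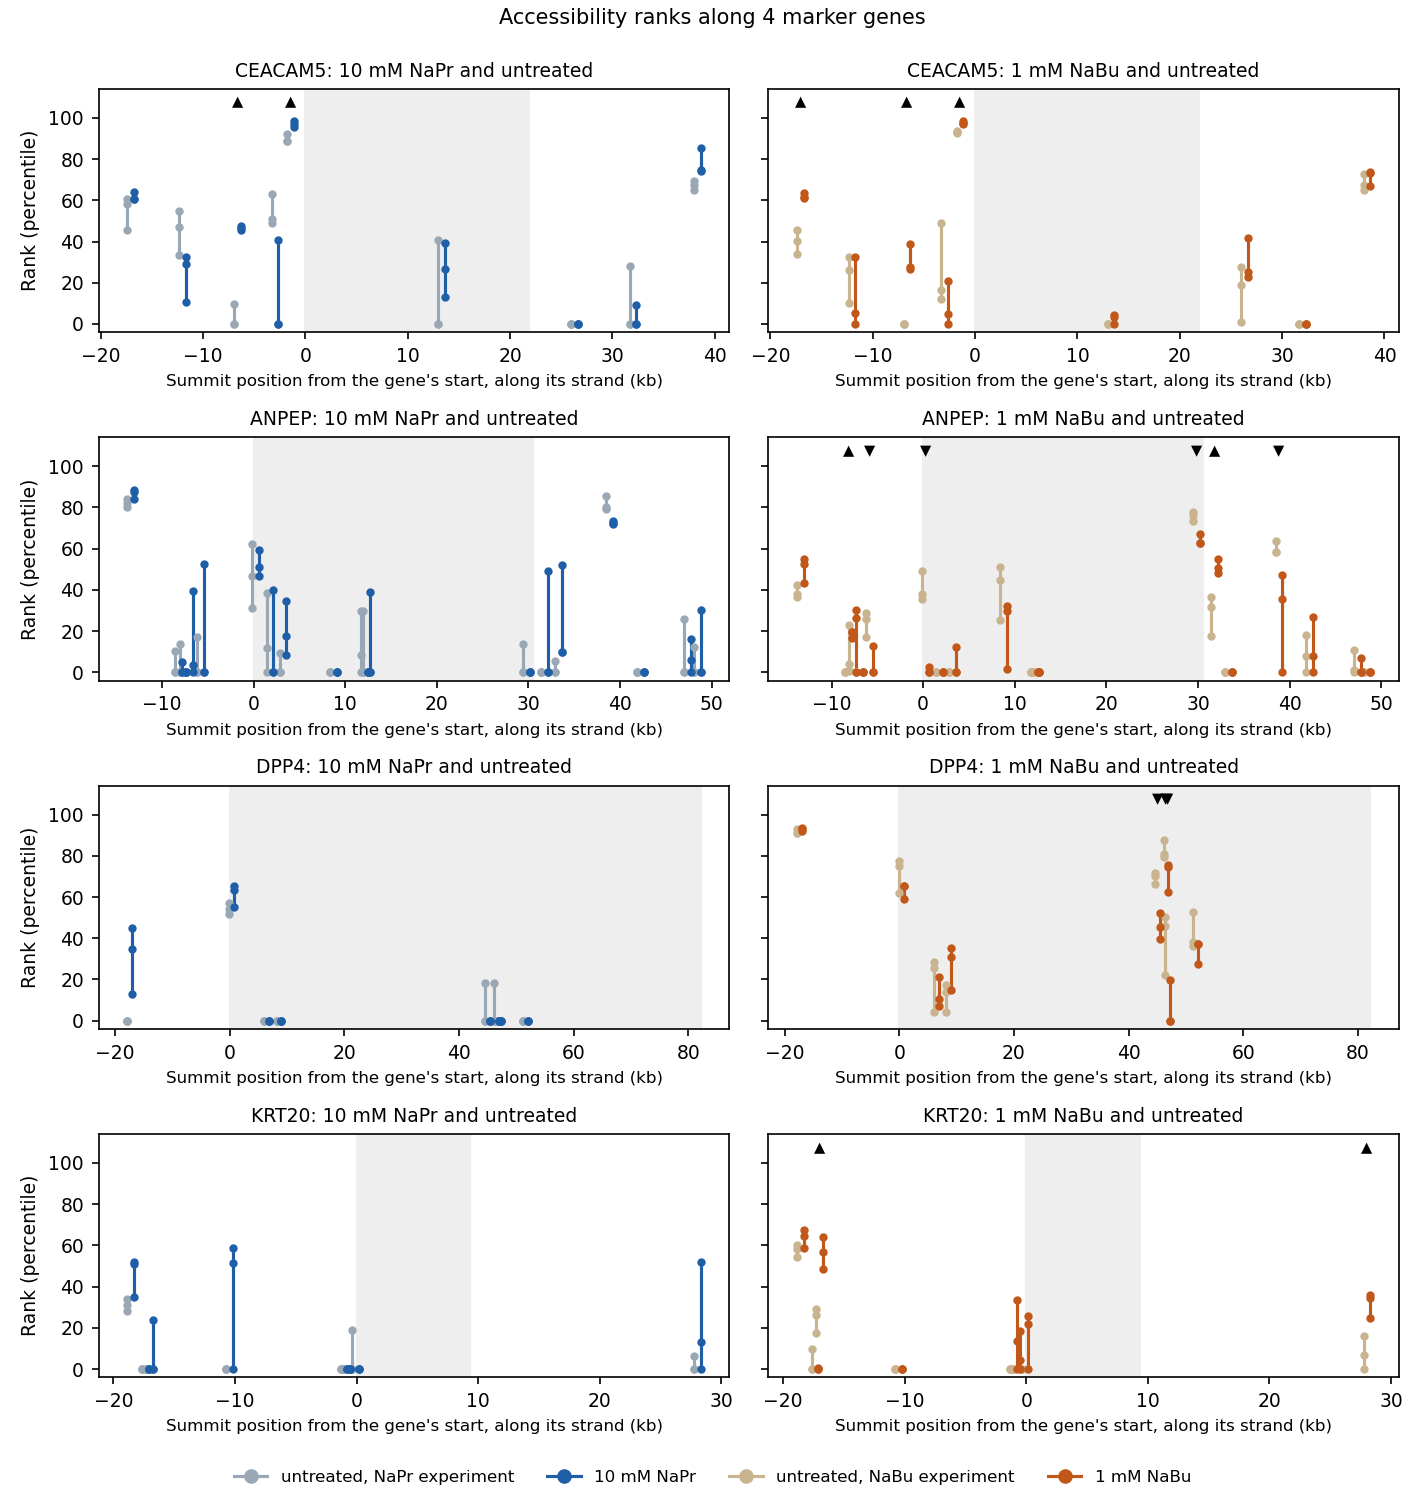
Accessibility rank of each region with a peak in at least 2 libraries at CEACAM5, ANPEP, DPP4 and KRT20, by distance of its summit from the gene's start along its strand (kb), for NaPr (left) and NaBu (right). Points are libraries, vertical lines span the 3 libraries of a group, grey marks the gene body, and triangles mark regions called higher (up) or lower (down). The 3 DPP4 regions called lower after NaBu lie together in the gene body, and the 2 CEACAM5 regions called in both experiments lie upstream.

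Among the brush border hydrolases, ALPI, the intestinal alkaline phosphatase (ENSG00000163295.5, chr2:232456125-232460753, plus strand), had 3 of 6 tested regions higher after NaBu and 0 lower, all outside the gene. The largest rise was at chr2:232446302-232446694, 9666 bp upstream of the start in an intron of the pseudogene DIS3L2P1. Its rank was 5.3, 8.91 and 7.88 in untreated and 35.2, 57.2 and 37.5 in NaBu-treated libraries (change 35.9 points, SE 7.15, limma adjusted p = 0.00571). The groups did not overlap. Unscaled tags at the summit were 39, 27 and 33 against 44, 67 and 47. The genome-wide background of these libraries was 3.03, 2.11 and 2.49 against 2.33, 2.46 and 2.52 tags. By fold enrichment the adjusted p was 0.143. In the NaPr experiment the same region stood at 54.7, 52.5 and 57.7 untreated and 66.2, 57.3 and 61.9 treated, which did not pass the test (change 6.82, SE 5.43, adjusted p = 0.464).

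A strong region 15454 bp upstream of ALPI, chr2:232439182-232440840, was listed in all 12 libraries and rose after NaBu from 88.6, 90 and 89.5 to 95.2, 97.3 and 95.8 (change 6.77, SE 0.798, limma adjusted p = 0.000752). By fold enrichment rank the change was 3.9 points and the call was lost (adjusted p = 0.147). After NaPr it changed by 3.76 points without overlap of the groups (SE 1.47, adjusted p = 0.157). A region past the 3′ end, chr2:232473154-232473991, is nearest to the start of ECEL1 and rose by 13.1 points after NaBu (SE 1.67, limma adjusted p = 0.000955), a call lost by log2 fold enrichment (adjusted p = 0.0571). The ALPI start region itself, chr2:232455514-232456491, covers a coding exon and was listed in 1 of 3 untreated and all 3 NaPr-treated libraries, at 17.2, 32.9 and 9 against 27.4, 0 and 0 (change 10.6, SE 11.0, adjusted p = 0.586). It had no peak in any library of the NaBu experiment.

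ANPEP, aminopeptidase N or CD13 (ENSG00000166825.15, chr15:89784895-89815401, minus strand), is known to be transcribed from separate promoters in myeloid and in intestinal epithelial cells, the epithelial one lying nearer to the coding sequence. The region at the upstream start, chr15:89814626-89815287, which is the start region by GENCODE, was lower after NaBu. It had ranks of 35.5, 38.2 and 49.3 in untreated libraries and 2.58, 0 and 0 in NaBu-treated ones, a fall of 40.1 points (change -40.12, SE 5.85, limma adjusted p = 0.00159). The untreated summits held 27 to 39 tags, and the 1 treated peak held 20. The call held without any 1 library (adjusted p 0.00566 to 0.00976). In the NaPr experiment the ranks were 31, 62.5 and 47 untreated and 51.2, 59.3 and 46.8 treated, with overlap (change 5.63, SE 9.26, adjusted p = 0.743).

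A second ANPEP start is annotated in RefSeq, with the promoter window chr15:89806579-89806878, and falls in the region chr15:89806229-89807157, whose summit lies in a UTR of the gene. This region was listed in all 6 libraries of the NaBu experiment and in none of the NaPr experiment. Its ranks were 51.3, 25.3 and 45 untreated and 1.42, 29.5 and 32.1 after NaBu, which overlapped, and the change did not pass the test (change -19.54, SE 10.2, adjusted p = 0.162).

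Elsewhere at ANPEP the NaBu changes went both ways. An intronic region near the 3′ end of the gene, chr15:89785010-89785758, fell from 77.9, 76.4 and 73.2 to 62.8, 62.7 and 67.2 (change -11.61, SE 2.5, limma adjusted p = 0.00791), and had a peak in 1 library of the NaPr experiment. With 12 libraries in one fit this call was lost (adjusted p = 0.109). A region 8143 bp upstream of the start, chr15:89823289-89823688, appeared in all 3 treated libraries, at 16.6, 19.4 and 19.8, and in no untreated one (change 18.6, SE 4.17, limma adjusted p = 0.00953). A region 5814 bp upstream, chr15:89821099-89821612, fell by 19.7 points (change -19.73, SE 5.97, limma adjusted p = 0.0317), and lost its call without untreated replicate 2 or 3 or treated replicate 2 or 3 (adjusted p 0.0797 to 0.0902) and with 12 libraries in one fit (0.299). The other called regions lay towards MESP2, a developmental transcription factor gene beyond the 3′ end. At the MESP2 start, chr15:89775897-89777036, the rank fell by 32.9 points (change -32.86, SE 10.9, limma adjusted p = 0.0451), and the call was lost without treated replicate 3 or any untreated replicate (adjusted p 0.0849 to 0.131). Just past the 3′ end of ANPEP, chr15:89783401-89784905, it rose by 22.6 points (SE 6.55, limma adjusted p = 0.027), but the call was lost by rank from the strongest (adjusted p = 0.068), with 12 libraries in one fit (0.182) and without untreated replicate 1 or 3 or treated replicate 2 or 3 (adjusted p 0.0539 to 0.0831).

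Of 15820 start regions, those whose ranks followed the upstream ANPEP start region most closely over the 12 libraries were at SMIM41 (Pearson r = 0.959), NEDD4 (0.939) and RAPGEF1 (0.931). These correlations are a description over libraries that fall into the same 4 groups.

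DPP4, dipeptidyl peptidase 4 or CD26 (ENSG00000197635.11, chr2:161992245-162074394, minus strand), had 1 to 3 listed regions per library in the NaPr experiment and 7 to 10 in the NaBu experiment. A region 17426 bp upstream, chr2:162091215-162092589, had no peak in untreated libraries of the NaPr experiment and ranks of 35, 45.2 and 13.2 after NaPr, on 8 to 13 tags at the summit (change 31.1, SE 10.5, limma adjusted p = 0.107). In the NaBu experiment it was among the strongest member regions, at 90.8, 91.2 and 93.2 untreated and 93.3, 93 and 92.2 after NaBu, with 169 to 259 tags (change 1.11, SE 0.831, adjusted p = 0.312). The start region, chr2:162073222-162075081, had ranks of 54.4, 57.1 and 51.9 before and 65.3, 63.4 and 55 after NaPr (adjusted p = 0.486), and 77.4, 74.9 and 61.8 before and 65.5, 59 and 65.1 after NaBu (change -8.13, SE 4.34, adjusted p = 0.171). Leaving out untreated replicate 3 of the NaBu experiment brought the latter to -12.9 (adjusted p = 0.0248).

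A group of 3 neighbouring regions in the DPP4 body, over exons of a noncoding transcript about the middle of the gene, fell after NaBu. At chr2:162029309-162030106 the rank fell from 66.2, 70.5 and 71.8 to 39.6, 52.5 and 45.6 (change -23.56, SE 4.41, limma adjusted p = 0.00438), and the call held without any 1 library but not by fold enrichment rank (0.0545). At chr2:162027721-162028215 it fell from 79.2, 80.9 and 87.5 to 75.7, 62.7 and 74.6 (change -11.56, SE 3.68, limma adjusted p = 0.0384), and the call was lost without any 1 library except treated replicate 1 (adjusted p 0.0654 to 0.142 for the others). At chr2:162027348-162027616 it fell from 46.1, 22.4 and 50.1 to 0, 19.6 and 0 (change -32.97, SE 9.1, limma adjusted p = 0.0223), and the call was lost without untreated replicate 1 or 3 or treated replicate 1 or 3 (adjusted p 0.0769 to 0.0855). In the NaPr experiment 2 of these 3 regions had a peak, at 18.5, in untreated replicate 1, and the other libraries had none.

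Of the structural markers, VIL1, the actin-bundling protein villin of the microvillus core (ENSG00000127831.11, chr2:218419121-218453295, plus strand), had a start region whose change did not pass the test after either compound. At chr2:218418767-218420433 the rank was 65.6, 69.6 and 63.5 untreated and 63.2, 67.8 and 73.9 after NaPr (change 2.07, SE 4.03, adjusted p = 0.787). It was 95.1, 95.5 and 96.9 untreated and 95.8, 96 and 97.2 after NaBu (change 0.51, SE 0.689, adjusted p = 0.575). Ranked by fold enrichment, it rose by 8.41 points after NaBu (adjusted p = 0.0282). Tags at the summit were 22 to 68 in the NaPr experiment and 290 to 463 in the NaBu experiment.

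The 3 VIL1 regions called lower after NaBu were not at the start. The largest fall was at chr2:218466001-218466542, past the 3′ end in an intron of USP37, with ranks of 31.1, 33 and 18.3 untreated and no peak in any treated library (change -27.5, SE 5.53, limma adjusted p = 0.00596). A small intronic region 1535 bp inside the gene, chr2:218420612-218420706, was listed at 8.98, 37 and 23.1 untreated and in no treated library (change -23.04, SE 7.07, limma adjusted p = 0.0335). It borders the start region. Its call was lost without untreated replicate 2 or 3 or any treated replicate (adjusted p 0.0697 to 0.0932), and by fold enrichment rank the change was -2.6 (adjusted p = 0.197). The remaining one, chr2:218399185-218399908, is at the start of the phosphatase gene CTDSP1 and fell by 16.5 points (change -16.46, SE 4.86, limma adjusted p = 0.0289). Its call was lost without any untreated replicate or treated replicate 2 or 3 (adjusted p 0.0805 to 0.102) and by fold enrichment rank (0.286).

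KRT20, the keratin of differentiated intestinal epithelium (ENSG00000171431.4, chr17:40875889-40885242, minus strand), had a peak at more of its regions after NaBu, with 3 or 4 listed in the untreated libraries of that experiment and 5 to 7 in the treated ones. The share of all SW480 regions with a peak was also higher, at 42.9 to 44% in treated against 38.4 to 40.8% in untreated libraries. Whether KRT20 differed from all regions in this was not tested. The largest rise was 16992 bp upstream, at chr17:40902030-40902302, from 26.2, 29.4 and 17.4 to 57, 48.7 and 63.9 (change 32.2, SE 6.35, limma adjusted p = 0.00547). Among the strongest 50000 intervals of each library alone, its change was 6.35 points and was not called (adjusted p = 0.305). Tags at the summit were 35, 25 and 26 against 47, 42 and 62, and 1 NaPr-treated library had the peak in the other experiment. A region 28010 bp beyond the start, past the 3′ end and nearest to KRT12, rose from 16, 6.7 and 0 to 34.3, 24.8 and 35.9 (change 24.1, SE 6.36, limma adjusted p = 0.0186). That call was lost by rank from the strongest (adjusted p = 0.0918) and without untreated replicate 2 or 3 or treated replicate 3 (0.0515 to 0.0651). The start region, chr17:40884934-40885413, had no peak in untreated cells of the NaBu experiment and ranks of 25.9, 0 and 22.1 after NaBu (change 16.0, SE 6.87, adjusted p = 0.101). It would be called without treated replicate 2 (adjusted p = 0.0087), but that is the treated library with no peak, so its removal by itself favours a call. After NaPr it had no peak, and 1 untreated library had it at 18.8.

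Among the genes for lipid and ion handling, FABP1, the liver fatty acid binding protein that is also abundant in enterocytes (ENSG00000163586.10, chr2:88122982-88128062, minus strand), had no start region. Its largest fall after NaBu was 11312 bp upstream, at chr2:88139053-88139700, where ranks were 38.5, 69 and 45.7 untreated and 0, 0 and 9.78 treated (change -47.8, SE 8.57, limma adjusted p = 0.00366). This was the largest called change of any member in either comparison, on 32 to 50 tags at untreated summits, and it was called without any 1 library. No library of the NaPr experiment had this peak. In that experiment a region 2213 bp upstream, chr2:88130097-88130876, had ranks of 73, 63.7 and 66.1 untreated and 53.2, 52.3 and 47.7 after NaPr (change -16.56, SE 5.29, limma adjusted p = 0.0905). It was called lower when ranks were counted from the strongest region (adjusted p = 0.0433). After NaBu it changed by -3.65 points (adjusted p = 0.608).

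CA2, the cytosolic carbonic anhydrase of colonocytes (ENSG00000104267.10), had a single region, at its start and over an exon of the antisense transcript CA3-AS1, with a peak in all 12 libraries. The rank rose after NaBu from 87.2, 87.6 and 88 to 91.4, 92.9 and 92.4 (change 4.63, SE 0.79, limma adjusted p = 0.00299), without overlap. By fold enrichment the adjusted p was 0.297. Tags at the summit, not scaled to the background of each library, were 138 to 219 untreated and 179 to 184 treated. In the NaPr experiment it was 94.1, 92.7 and 91.4 untreated and 91.2, 96.7 and 94.1 treated (change 1.25, SE 1.35, adjusted p = 0.602). SLC26A3, the chloride and bicarbonate exchanger of the colonocyte surface (ENSG00000091138.13, chr7:107765467-107803225, minus strand), had a weak start region, chr7:107803188-107803800, in the NaBu experiment. Its ranks were 10.1, 0 and 29.8 untreated and 18.8, 8.88 and 28.4 treated, on 18 to 23 tags (change 5.42, SE 8.59, adjusted p = 0.637), and no library of the NaPr experiment had it.

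The compounds were given at different doses, so their values at the same member are set side by side without a comparison. At the CEACAM5 start the changes were 7.24 points after 10 mM NaPr and 4.63 after 1 mM NaBu, and at the CEACAM5 upstream region 43.2 and 31.1. At the upstream ANPEP start they were 5.63 and -40.12, at the ALPI upstream region 6.82 and 35.9, at the DPP4 start 6.76 and -8.13, and at the VIL1 start 2.07 and 0.51.

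A wider list of 41 enterocyte and colonocyte genes (brush border structure, digestion and absorption, and colonocyte surface and ion transport) was counted in the same way. Of these, 30 had a start region, 16 with a peak in all 12 libraries. After NaPr, 8 of 292 tested regions were higher (2.74%, against 3.1% of all) and 6 lower (2.06%, against 2.22%). After NaBu, 69 of 279 were higher (24.7%, against 24%) and 38 lower (13.6%, against 13.1%), with a median change of 3.02 points against 2.92. Ranks from the strongest region gave 57 higher (20.4%, against 18.8%) and 45 lower (16.1%, against 17.8%) after NaBu. The members had 20.8% of tested regions lower after NaBu by either ranking, beside 13.6% of the wider list by percentile and 16.1% by rank from the strongest, and the difference was not tested.

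Of the start regions of the wider list, 0 of 28 tested were higher and 1 lower after NaPr (3.1% and 2.22% of all tested regions). After NaBu 3 of 22 tested were higher and 4 lower (24% and 13.1% of all tested regions). APOA1, which encodes the main protein of high-density lipoprotein, fell after NaPr from 90.5, 94.4 and 93.3 to 85.2, 84.2 and 86.4 (change -7.45, SE 1.33, limma adjusted p = 0.0142). After NaBu, start regions of MYO1A, a myosin of the brush border (change 17.5), SLC15A1, the peptide transporter (9.05), and SLC6A19, a neutral amino acid transporter (22.6), were higher, the last of these not by rank from the strongest (adjusted p = 0.0511). Lower were EZR, which encodes ezrin (change -14.72), the protocadherin gene CDHR2 (-13.33), the scaffold gene ANKS4B (-21.44) and SLC9A3, the apical sodium and proton exchanger (-37.96). SLC9A3 had ranks of 44.2, 43.9 and 25.8 untreated and no peak in any treated library.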

How the data were processed

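The 12 SW480 peak lists (MACS2 narrowPeak, 1 per library) were used, and 8 lists of the mouse line CT26 were not used here. Per the labels and the submitters' processing notes, the authors demultiplexed reads with bcl2fastq 2.17.1, trimmed them with cutadapt 1.9.1, aligned them with Bowtie2 2.3.1 to hg38 and called peaks with MACS2 2.1.0 in each library alone. The deposited columns used were the fold (a ratio of pile-up to local background), the −log10 p-value and the −log10 q-value of each summit. Lines of 1 interval were joined, intervals of the 12 lists were merged where they overlapped by at least 1 bp, and regions were ranked within library by their highest −log10 p, as a percentile among regions with a peak. Ranks depend on how many regions a list holds. Ranks counted from the strongest region, with a missing peak at the lowest value, were therefore an alternative. Because the lists hold no reads, the study's test on read counts could not be run. Regions with a peak in at least 2 of the 6 libraries of a comparison were tested with limma 3.58.1 in R 4.3.3 (lmFit, eBayes with trend, two-sided), adjusted over all tested regions, and called at an adjusted p below 0.05. Tags at summits were solved from fold and p with MACS2's pseudocount of 1 (100% of lines solved). Named regions were each gene's start region, its called regions and regions with peaks in 1 group alone. Those described as not called beside them were chosen after their values were seen. Motifs were sought in 200 bp around summits of hg38. The members, the wider list, the markers and the motifs were chosen with earlier results of these data known. Other choices tried were fold-enrichment ranks, log2 fold enrichment, stricter or looser peak filters, other merging, 1 fit of 12 libraries, a replicate block and leaving out each library. Fewer than 1% of intervals were identical between replicates (at most 0.796%).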

Additional observations from a re-analysis of the deposited data

How the results depend on the processing

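The lists give no depth and were limited in length, so weak regions move in and out of a list, and a change of a region near its end was not detectable with confidence. The main counts were 2 higher and 0 lower of 46 tested after NaPr, and 11 and 11 of 53 after NaBu. Counts that moved by over 1.5 times follow. The number of members tested often differed too, so a count can move without its share. With gene bodies alone the counts were 0 higher of 13 tested after NaPr, and 2 higher and 6 lower of 18 after NaBu. With 50 kb on both sides, 2 of 91 tested were lower after NaPr, and 21 of 96 were higher and 19 lower after NaBu. With 12 libraries in one fit, 4 of 69 tested were higher and 1 lower after NaPr. Ranks of fold enrichment gave 0 higher after NaPr, and 5 higher and 5 lower after NaBu. Over all regions, the same ranks called 0 after NaPr in either direction, with 20921 at an unadjusted p below 0.05. The log2 fold enrichment gave 0 higher of 21 tested after NaPr, and 3 higher and 2 lower of 29 after NaBu. Centred on each library's median, it gave 2 lower of 21 after NaPr, and 3 higher and 3 lower of 29 after NaBu. Of all calls, 91.6% and then 48.4% were higher after NaPr (58.3% by percentile rank). Without the filter on low presence there were 0 higher of 75 tested after NaPr and 6 lower of 64 after NaBu. The strongest 50000 intervals gave 1 higher and 1 lower of 18 tested after NaPr, and 5 and 5 of 20 after NaBu. Ranks from the strongest gave 2 lower after NaPr. Leaving out 1 library gave 0 to 1 higher and 0 to 0 lower of 40 to 45 tested after NaPr. After NaBu it gave 9 to 12 higher and 5 to 10 lower of 50 to 53, the fewest lower without treated replicate 3. Fewer libraries per fit lower the power of each such test.

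Deviations of same-numbered libraries correlated at 0.00492 to 0.0184 in the NaPr experiment and 0.00836 to 0.0313 in the NaBu experiment. Those of differently numbered libraries correlated at -0.0136 to 0.00408 and at -0.0289 to 0.0123. In both experiments each untreated library correlated most with the treated library of its own number. All values were small, and they do not settle whether the numbers pair libraries. With the replicate block, 1 region was higher after NaPr and 0 lower, the upstream CEACAM5 region reaching an adjusted p of 0.0598, and 11 were higher and 11 lower after NaBu, where the ANPEP region at 89821099 had 0.0547.

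Directions turned for named regions as follows. After NaPr, the VIL1 start ranged from -0.74 (without treated replicate 3) to 4.61 when 1 library was left out, and the ANPEP start from -2.28 (without untreated replicate 1) to 13.5, and was at -3.66 with the strongest 50000 intervals. The CA2 start after NaPr was at -0.0884 by log2 fold enrichment, -0.253 after centring, -2.09 by fold enrichment rank and from -0.107 (without treated replicate 2) to 2.66 when 1 library was left out. None of these was called. After NaBu, the SLC26A3 start ranged from -1.22 (without untreated replicate 2) to 13.7. Of the 22 regions called after NaBu, 13 lost the call by fold enrichment rank, 7 of the 12 with a value by log2 fold enrichment, 5 with 12 libraries in one fit, 5 without the filter on low presence and 2 by rank from the strongest. Windows around single summits gave a value of their own at 11 of the 22, none of which lost its call, and joined the others to a neighbour. Both regions called after NaPr lost the call by fold enrichment rank and without the filter. The cause was not tested.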

Other observations

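Markers of other cell lineages were looked at by their start regions alone. Over all tested regions, 24% were called higher and 13.1% lower after NaBu, and 3.1% and 2.22% after NaPr. By rank from the strongest region, 17.8% of all were lower after NaBu and 3.9% after NaPr. The marker lists are too short to be set against these shares. After NaBu, 2 of 4 goblet cell markers were called: FCGBP, an IgG-binding mucus protein, rose from 0, 1.01 and 10.6 to 55.6, 58 and 48.8 (change 50.3, SE 6.1, limma adjusted p = 0.000824), and TFF3, a trefoil peptide, fell from 88.7, 86.7 and 88.9 to 57.9, 56.1 and 56.6 (change -31.23, SE 1.94, limma adjusted p = 0.000193). TFF3 had no peak in any library of the NaPr experiment. Of 3 fibroblast markers, COL1A1 and COL1A2, which encode the chains of type I collagen, were higher after NaBu by 9.57 points (SE 0.99, limma adjusted p = 0.000513) and 27.4 points (SE 3.54, limma adjusted p = 0.00102), and DCN had a peak in 1 library. Of 2 endothelial markers PECAM1 was lower (change -16.1, limma adjusted p = 0.0447). None of 3 enteroendocrine or 6 epithelial markers was called after NaBu, nor was the leukocyte marker CD14. PTPRC and CD3E had no start region and could not be called. None of the lists in this paragraph had a call after NaPr, where several starts had too few peaks to be tested. The starts tested were 6 of 6 epithelial, 2 of 4 goblet, 2 of 3 enteroendocrine, 2 of 3 fibroblast, 1 of 2 endothelial and 1 of 4 leukocyte. By rank from the strongest region, more were called: CLDN7, an epithelial claudin, was lower after NaPr (change -14.55, limma adjusted p = 0.0268, against 0.0503 by percentile), and CLDN7, KRT8, CD14 and SYP were lower after NaBu (limma adjusted p 0.0326 to 0.0408, against 0.0545 to 0.113 by percentile).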
